A study of Mus musculus with 16 samples.

Results

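The genes described here encode the SR proteins and the heterogeneous nuclear ribonucleoproteins (hnRNPs), the RNA-binding proteins that choose which exons are joined. Members were taken by symbol, as Srsf followed by a number or as any name beginning with Hnrnp, where the mean over the libraries reached 10 in both expression tables. There were 31 members, 11 Srsf and 20 Hnrnp genes, of 14333 genes that reached this mean in both tables. A pseudogene, Hnrnpa1l2-ps2, would have been the 32nd matching symbol and was left out; its values were 26.3 to 74.3 in the Tsc2 mut/mut libraries and 34.4 to 110.7 in the Tsc2 wt/wt libraries. The rule itself used no measured value other than this minimum, but it was chosen with earlier results of these data known.

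The cultures were of neural stem cells (NSCs) that line the lateral ventricles of mouse pups, in the ventricular-subventricular zone (V-SVZ). Tsc2 mut/mut cultures came from pups with conditional Tsc2 alleles, a tdTomato reporter and tamoxifen-inducible Cre under the Nestin promoter, which is active in NSCs. Tsc2 wt/wt cultures came from pups with wild-type Tsc2 alleles and were handled alike, and the sources used here leave unclear whether they carried Cre. Both genotypes were given tamoxifen as pups. For pups with the inducible Cre the methods list an injection of EdU, a thymidine analogue, with it. All cultures were grown with EGF and FGF and treated with cycloheximide, which holds ribosomes on mRNA, before lysis. The 4 groups were Tsc2 mut/mut total RNA, Tsc2 wt/wt total RNA, Tsc2 mut/mut polyribosomal RNA and Tsc2 wt/wt polyribosomal RNA, with 4 libraries each. Total and polyribosomal RNA came from the same 8 cultures, the polyribosomal RNA from the heaviest part of a sucrose gradient. The methods count these samples as cultures and, for one analysis of the same data, as mice, without stating that each culture came from 1 mouse, and tests measure the spread between cultures. Recombination was not measured culture by culture here, and cultures can hold cells in which Cre was not active.

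SR proteins carry RNA recognition motifs and a tail rich in arginine and serine, bind enhancer sequences in exons and help the spliceosome to use the splice sites beside them. hnRNPs coat nascent transcripts and often act in the opposite sense, by hiding splice sites or looping exons out. Most members of both families are abundant in dividing cells, and many limit their own amount by splicing in an exon or intron that exposes the transcript to nonsense-mediated decay (NMD). Tsc2 encodes tuberin, which holds the kinase complex mTORC1 in check, and mTORC1 promotes translation, most of all of mRNAs that begin with a run of pyrimidines (the TOP motif).

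Sequences of 2 kinds, both known to bear on how much protein these genes make, were read from the reference. The first are cassette exons that occur in annotated NMD transcripts. Of the 31 members, 19 (61.3%) had at least 1 annotated NMD transcript in GENCODE M21, 9 of 11 Srsf and 10 of 20 Hnrnp genes, and among 13550 protein-coding genes tested in both tables the share was 27.8%. A transcript with a retained intron was annotated for 71.0% of members and for 57.5% of those genes. In 7 members a cassette exon held the annotated premature stop codon, and 4 of these exons are shown from their first base to the stop codon, which is in capitals (GRCm38, 5′ to 3′ on the gene's strand).
Srsf3 (chr17:29039454-29039909, plus strand, exon of 456 bases): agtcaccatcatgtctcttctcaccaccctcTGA
Srsf7 (chr17:80204622-80205081, minus strand, exon of 460 bases): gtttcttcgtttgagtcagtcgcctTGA
Hnrnpl (chr7:28817335-28817404, plus strand, exon of 70 bases): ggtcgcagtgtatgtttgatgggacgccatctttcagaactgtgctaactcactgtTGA
Hnrnpll (chr17:80044940-80045022, minus strand, exon of 83 bases): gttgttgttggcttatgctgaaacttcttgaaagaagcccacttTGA
The other exons were in Srsf4, Srsf9 and Srsf11. The deposited tables hold 1 value a gene, in which transcripts with and without these exons are pooled, so a change of a gene below cannot be assigned to either kind.

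The second kind is the transcription start, where a TOP motif would lie. Among 29 members with a RefSeq promoter, a run of 8 or more C or T that began within 5 bases of the annotated start was found in 2 (6.90%), Hnrnpa3 and Srsf5, and in 6.07% of 11174 genes. Srsf7 has a run of 10 C or T that ends at the base before the annotated start, outside this rule. A run of 5 or more C or T from the annotated start itself was found in 6.90% of members and 4.18% of genes. Windows of 30 bases, 10 before the annotated start and 20 from it, are shown for these 2 members and for 2 members with large changes below, with the longest run near the start in capitals (GRCm38.p6).
Hnrnpa3 (chr2:75659249-75659278, plus strand): gactggccccgCCTCTTCCTCTCggtccca
Srsf5 (chr12:80945489-80945518, plus strand): caggacgTCCCTTCCattttgtgcaacgtc
Srsf6 (chr2:162931498-162931527, plus strand): cttatagcgtaggCCggcgcgcgcgcgcgc
Hnrnpc (chr14:52104002-52104031, minus strand): cctcggCggcagaggagctcgggggccatt
The annotated start is that of 1 RefSeq transcript, and the starts used in these cultures were not measured.

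Promoters of 2 members are also shown, each as the 250 bases before the annotated start. Matches on either strand of the CCAAT box (letters CCAAT), the GC box (letters GGGCGG) and an ETS site (letters CCGGAAG) are in capitals. No 2 matches overlap.
Srsf7 (chr17:80207306-80207555, minus strand): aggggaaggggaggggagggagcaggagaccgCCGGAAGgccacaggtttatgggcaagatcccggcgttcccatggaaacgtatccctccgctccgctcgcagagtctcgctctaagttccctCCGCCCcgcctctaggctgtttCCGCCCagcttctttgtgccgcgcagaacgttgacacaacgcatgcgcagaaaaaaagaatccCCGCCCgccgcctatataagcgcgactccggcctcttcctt
Hnrnpc (chr14:52104022-52104271, minus strand): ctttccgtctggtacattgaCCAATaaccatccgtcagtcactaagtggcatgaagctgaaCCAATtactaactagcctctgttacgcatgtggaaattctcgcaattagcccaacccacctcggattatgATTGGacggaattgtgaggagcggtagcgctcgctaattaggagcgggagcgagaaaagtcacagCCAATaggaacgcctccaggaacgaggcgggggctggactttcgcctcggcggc
Hnrnpc had 4 CCAAT matches and Srsf7 had 3 GGGCGG matches and 1 CCGGAAG match. In the 300 bases around the start, CCAAT was found in 55.2% of members and 38.8% of genes, GGGCGG in 79.3% and 65.0%, and CCGGAAG in 20.7% and 17.2%. Another 3 motifs were searched: the TATA box (TATAAA) was found in 13.8% and 6.71%, the E-box (CACGTG) in 13.8% and 10.0%, and the cAMP response element (TGACGTCA) in 0 of 29 members and 3.26% of genes. The median GC content of these 300 bases was 68.3% in members and 61.0% in genes. The part of these motifs in the members' change was not tested.

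The deposited values are read counts divided by normalization factors. They summed to 65.6 M to 73.7 M a library for total RNA and 87.4 M to 100.5 M for polyribosomal RNA (1 M is 1000000), and the depth estimated from the size of 1 read was 24.7 M to 139 M and 52.3 M to 266 M reads. Tsc2 itself had total RNA values of 5592 to 7076 in Tsc2 mut/mut and 6232 to 7836 in Tsc2 wt/wt cultures (log2 change -0.10 ± 0.10, adjusted p = 0.422), and polyribosomal values of 5956 to 9339 and 10505 to 13165 (-0.49 ± 0.15, adjusted p = 0.0389). A gene value can include reads outside the deleted part, so it is a weak check of the labels. Of 16 NSC identity genes, 3 fell and 3 rose in total RNA (median log2 change 0.09), and 3 fell and 1 rose in polyribosomal RNA (median -0.11). Over all genes 20.7% were called lower and 19.7% higher in total RNA, and 11.9% and 11.7% in polyribosomal RNA. Hes5, a Notch target, fell in both fractions (-1.95 ± 0.28 and -1.61 ± 0.32), whereas Sox9 rose in total RNA (0.68 ± 0.14). Sox2 had total RNA values of 27524 to 31360 in Tsc2 mut/mut and 25227 to 28378 in Tsc2 wt/wt cultures. Its polyribosomal values were 34718 to 40455 in Tsc2 mut/mut and 38519 to 47801 in Tsc2 wt/wt cultures. Tsc2 mut/mut total RNA of culture 3 stood apart in holding 21145 genes above 0, against 16441 to 18342 in the other total RNA libraries, and Tsc2 mut/mut cultures 2 and 4 had higher summed microglia markers (13202 to 24566) than the other 6 cultures (3135 to 5673). The 4 Y-linked genes listed, which male cells alone express, summed to 4203 to 5802 in total RNA of Tsc2 mut/mut culture 1 and Tsc2 wt/wt cultures 1 to 3, and to 7 to 258 in Tsc2 mut/mut cultures 2 to 4 and Tsc2 wt/wt culture 4.

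In total RNA, 23 of the 31 members were lower in Tsc2 mut/mut than in Tsc2 wt/wt NSCs and none was higher (limma, adjusted p under 0.05 over all genes tested). Over all 14967 genes tested, 20.7% were called lower and 19.7% higher. The median log2 change of the members was -0.38, a level 0.771 times that of Tsc2 wt/wt, and that of all genes was 0.01. Of the Srsf genes 10 of 11 fell (median -0.44), and of the Hnrnp genes 13 of 20 (median -0.33). In 20 of 31 members all 4 Tsc2 mut/mut libraries lay below all 4 Tsc2 wt/wt libraries, against 20.3% of all genes. With 1 culture left out 13 to 24 members were called lower: 13 without Tsc2 mut/mut culture 1, 15 without Tsc2 mut/mut culture 3, and 14, 15 and 15 without Tsc2 wt/wt cultures 2, 3 and 4. There were 5 called with Y-linked RNA as a covariate, 10 without Tsc2 mut/mut cultures 1 and 3, and 15 with columns scaled to the same total, where over all genes 2263 were lower and 3833 higher in place of 3091 and 2944. Over all genes, 535 were called lower with the covariate and 1151 without Tsc2 mut/mut cultures 1 and 3. With 1 culture left out, 2114 to 3416 of all genes were called lower. In bulk RNA, fewer cells of a kind and less RNA per cell cannot be told apart.

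Hnrnpc, which binds uridine tracts in nascent transcripts, had the smallest p. Its total RNA values were 20301, 24408, 18453 and 24843 in Tsc2 mut/mut cultures 1 to 4 and 35178, 35945, 35085 and 33835 in Tsc2 wt/wt cultures 1 to 4. The Tsc2 wt/wt cultures lay close together and all 4 Tsc2 mut/mut cultures were below them, a mean 37.2% lower (log2 change -0.68 ± 0.10, adjusted p = 0.00283). Hnrnpf, which binds runs of guanines, had values of 42094, 51754, 37723 and 49514 in Tsc2 mut/mut and 68947, 65231, 69482 and 63525 in Tsc2 wt/wt cultures. The groups again did not overlap (-0.57 ± 0.11, adjusted p = 0.00433). Srsf6, an enhancer-binding SR protein, had values of 14390, 17000, 11699 and 14569 in Tsc2 mut/mut and 21460, 20561, 23328 and 20945 in Tsc2 wt/wt cultures, 33.2% lower on the mean (-0.59 ± 0.11, adjusted p = 0.00441).

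Among the other SR genes, Srsf7, which couples splicing to mRNA export, changed most in total RNA. It averaged 9739 ± 2402 in Tsc2 mut/mut and 17306 ± 1401 in Tsc2 wt/wt cultures (SD, n = 4 each), a log2 change of -0.86 ± 0.17. Srsf3, another export adaptor and the smallest SR protein, fell by 34.1% of the Tsc2 wt/wt mean, and Srsf1, the prototype SR protein, fell by 35.0%. Srsf2, a component of nuclear speckles and the most abundant Srsf gene here per length of its principal transcript as well as by value, had 24074, 32021, 18430 and 28524 in Tsc2 mut/mut and 38407, 36482, 42242 and 34910 in Tsc2 wt/wt cultures. Cultures 2 and 4 were the highest Tsc2 mut/mut cultures for Srsf2, yet lay below every Tsc2 wt/wt culture (-0.59 ± 0.15, adjusted p = 0.0146). Srsf4, Srsf5, Srsf9, Srsf10 and Srsf11 fell by 18.8% to 26.0% of their means, with adjusted p of 0.00607 for Srsf5 and 0.021 to 0.045 for the other 4. Srsf12 was the exception in level and direction, with 118 to 194 in Tsc2 mut/mut and 135 to 163 in Tsc2 wt/wt cultures (0.15 ± 0.19, adjusted p = 0.548).

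Among the Hnrnp genes, Hnrnpab was the most abundant per length and by value, with 68107, 89156, 56292 and 88586 in Tsc2 mut/mut and 118080, 108975, 111547 and 107109 in Tsc2 wt/wt cultures. The groups were separate (-0.59 ± 0.14, adjusted p = 0.0103). In the A/B group, whose members often repress exons, 3 genes fell, Hnrnpa1 by 32.1%, Hnrnpa3 by 33.3% and Hnrnpa2b1 by 27.1% of their means. Hnrnph3 and Hnrnph1, which bind guanine runs like Hnrnpf, fell by 26.6% and 19.5%. Hnrnpk, which binds C-rich RNA through KH domains, fell by 22.7%. Hnrnpl and Hnrnpll, which bind CA repeats, fell by 20.5% and 18.6%, and Hnrnpdl and Hnrnpr by 20.5% and 16.5%. Their limma adjusted p was 0.038 to 0.0474, and that of Hnrnph1 was 0.0419. Of 8 fits with 1 culture left out, Hnrnph1 was called lower in 3. Hnrnpl, Hnrnpll and Hnrnpr were called lower in 2 of 8, and Hnrnpdl in 1 of 8. No call was made for Hnrnpu (-0.30 ± 0.12, adjusted p = 0.0638), which ties RNA to chromatin, for Hnrnph2, the X-linked member, or for Hnrnpm, Hnrnpul1, Hnrnpd and Hnrnpa0, whose log2 changes were -0.27 to -0.11. Hnrnpul2 had the same mean in both genotypes within 0.416% (log2 change 0.00 ± 0.11). In Tsc2 wt/wt culture 1 the total RNA of 15 members was the highest of the 4 Tsc2 wt/wt cultures.

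**Figure D1:**
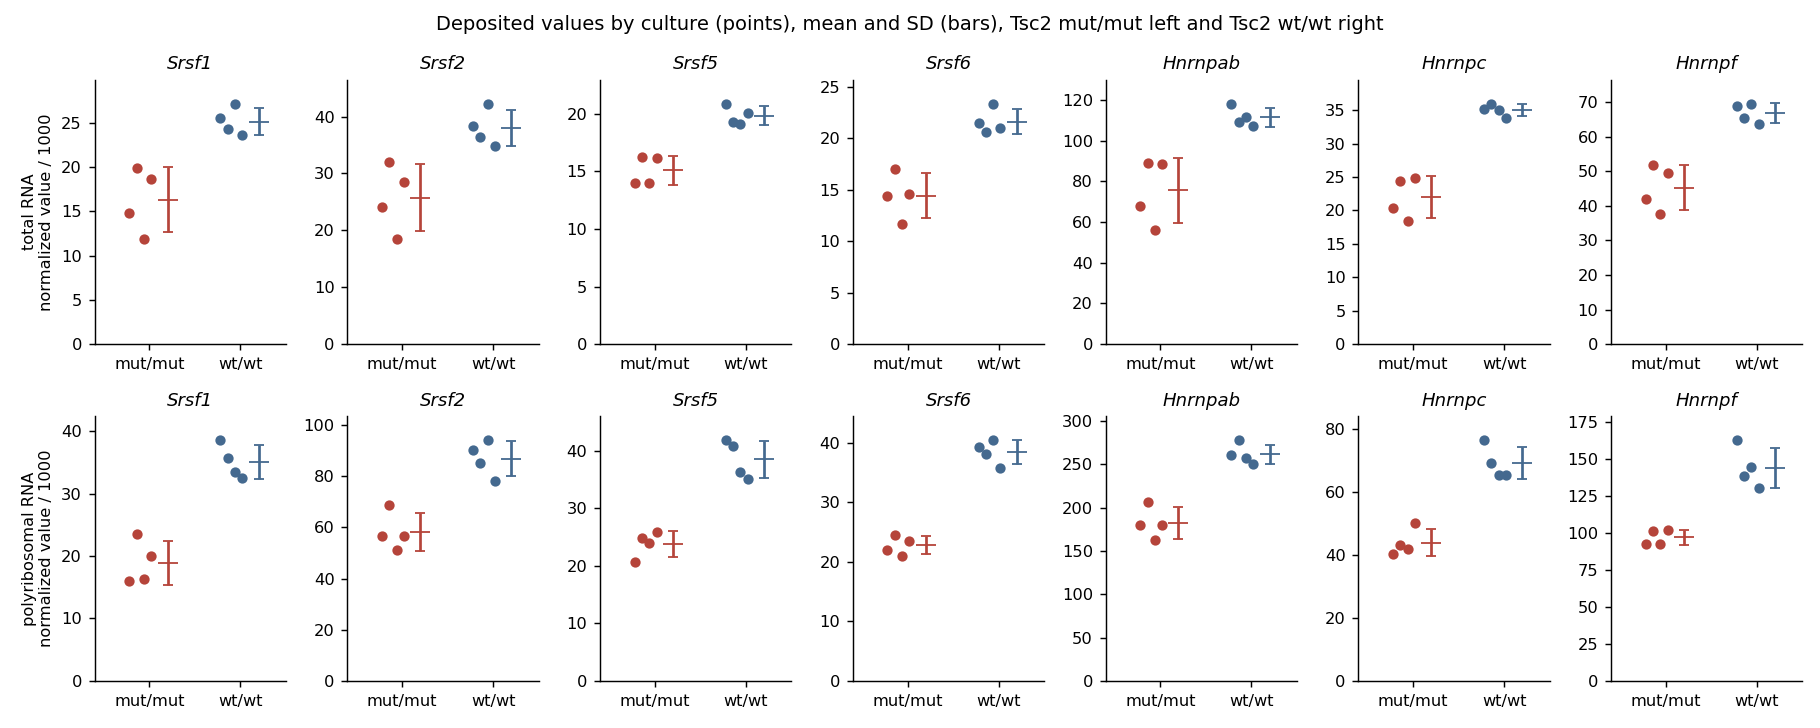
Deposited normalized values (divided by 1000, axes from 0) of 7 members in total RNA (upper row) and polyribosomal RNA (lower row); points are cultures, bars the mean and SD of 4 Tsc2 mut/mut cultures (left) and 4 Tsc2 wt/wt cultures (right). In each of the 14 panels every Tsc2 mut/mut culture lies below every Tsc2 wt/wt culture.

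In polyribosomal RNA, 23 of 31 members were lower in Tsc2 mut/mut NSCs and none was higher, against 11.9% lower and 11.7% higher of 14412 genes tested. The median log2 change of the members was -0.55 (0.685 times the Tsc2 wt/wt level) and that of all genes 0.01. All 31 log2 changes were below 0, from -0.90 for Srsf1 to -0.01 for Srsf12. Of the Srsf genes 7 of 11 fell (median -0.58) and of the Hnrnp genes 16 of 20 (median -0.54). In 23 members the groups did not overlap, against 14.6% of all genes. There were 0 members called with Y-linked RNA as a covariate, 15 without Tsc2 mut/mut cultures 1 and 3, and 20 with columns scaled to the same total, where over all genes 929 were lower and 2583 higher in place of 1713 and 1690. Over all genes, 13 were called lower with the covariate and 633 without Tsc2 mut/mut cultures 1 and 3.

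The 3 smallest p-values belonged to SR genes. Srsf6 had polyribosomal values of 22078, 24593, 21043 and 23581 in Tsc2 mut/mut and 39358, 38132, 40405 and 35769 in Tsc2 wt/wt cultures. Both groups were tight and far apart, a mean 40.6% lower in Tsc2 mut/mut (-0.75 ± 0.10, adjusted p = 0.00182). Srsf1 had 15977, 23465, 16332 and 20020 in Tsc2 mut/mut and 38490, 35725, 33511 and 32481 in Tsc2 wt/wt cultures, 45.9% lower (-0.90 ± 0.14, adjusted p = 0.00266). Srsf5 had 20581, 24840, 23874 and 25811 in Tsc2 mut/mut and 41749, 40724, 36354 and 35049 in Tsc2 wt/wt cultures (-0.70 ± 0.12, adjusted p = 0.00361). For all 3 genes no Tsc2 mut/mut culture reached the lowest Tsc2 wt/wt culture. Srsf7, Srsf3, Srsf2 and Srsf4 fell by 37.3%, 35.7%, 33.0% and 30.2% of their means. Srsf9, Srsf10 and Srsf11 had log2 changes of -0.34, -0.47 and -0.39 without a call, and in Srsf9 the Tsc2 wt/wt cultures themselves ranged from 20439 to 33282.

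Among the Hnrnp genes, Hnrnpd, which binds AU-rich elements and promotes decay of the mRNAs that carry them, changed most in polyribosomal RNA. Hnrnpd had 52677, 70992, 44899 and 46280 in Tsc2 mut/mut and 93516, 97845, 90993 and 88105 in Tsc2 wt/wt cultures, 42.0% lower (-0.81 ± 0.14, adjusted p = 0.004). Hnrnpc (-0.66 ± 0.11), Hnrnph3 (-0.67 ± 0.11) and Hnrnpf (-0.57 ± 0.10) fell with adjusted p of 0.00361 to 0.00462. Hnrnpab, Hnrnpa2b1, Hnrnpa3 and Hnrnpl fell by 30.4%, 35.0%, 37.3% and 31.9%. Hnrnpu, Hnrnpm, Hnrnpul1, Hnrnpul2 and Hnrnpa0, for which total RNA gave no call, fell by 27.5% to 34.1% of their means. Hnrnpk fell least of those called (-0.31 ± 0.10, adjusted p = 0.0427). Hnrnpdl, Hnrnpr, Hnrnph1 and Hnrnph2 had log2 changes of -0.41 to -0.20 and no call.

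**Figure D2:**
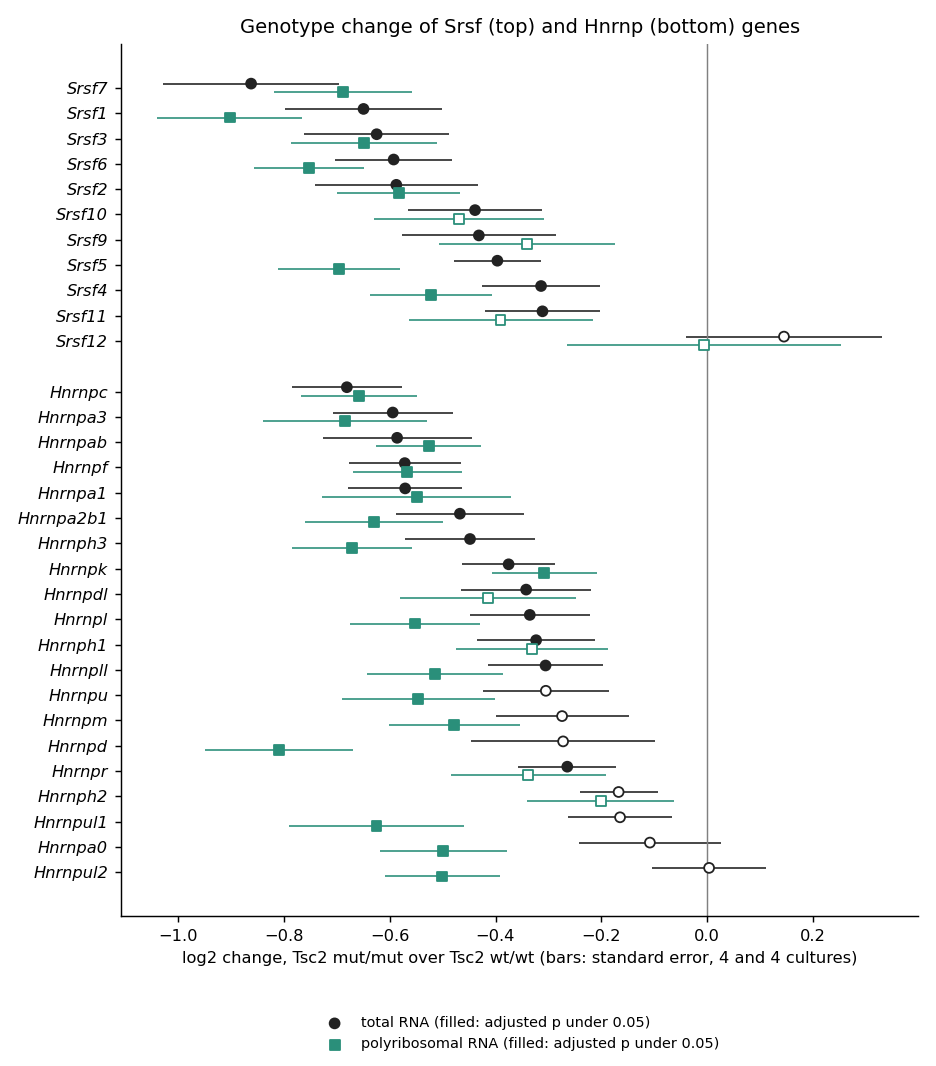
log2 change of each member, Tsc2 mut/mut over Tsc2 wt/wt, with its standard error, in total RNA (circles) and polyribosomal RNA (squares); filled symbols have a limma adjusted p under 0.05. Symbols lie left of 0 except Srsf12 in total RNA and Hnrnpul2 in total RNA, which is at 0.00.

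Both tables called 17 members lower, and they share cultures. A further 6 members were called in total RNA alone (Srsf9, Srsf10, Srsf11, Hnrnpdl, Hnrnph1 and Hnrnpr), and for these the test of the difference between fractions gave adjusted p of 0.71 to 0.974. Another 6 were called in polyribosomal RNA alone (Hnrnpa0, Hnrnpd, Hnrnpm, Hnrnpu, Hnrnpul1 and Hnrnpul2), and 2 of these also passed that test. Hnrnph2 and Srsf12 were called in neither. The 31 members took 0.836% to 1.09% of all total RNA values in Tsc2 mut/mut and 1.16% to 1.29% in Tsc2 wt/wt cultures. Their share of polyribosomal values was 1.19% to 1.48% in Tsc2 mut/mut and 1.66% to 1.83% in Tsc2 wt/wt cultures. The ranges did not overlap in either fraction.

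Translational efficiency was taken as the change of polyribosomal relative to total RNA between genotypes, tested as the interaction of genotype and fraction with culture as a block. Of the 31 members, 2 fell and none rose, against 7.89% lower and 5.07% higher of 14333 genes tested; 6 members had an unadjusted p under 0.05. The 2 of 31 called lower (6.45%) are close to the share among all genes. The median log2 change was -0.09 over members and 0.01 over all genes.

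Hnrnpul2, a relative of Hnrnpu, fell by 0.50 on the log2 scale (SE 0.13, adjusted p = 0.0168). Its total RNA was 17319, 19334, 18524 and 19992 in Tsc2 mut/mut and 22955, 17119, 16597 and 18812 in Tsc2 wt/wt cultures, and these ranges overlapped. Its polyribosomal RNA was 22566, 24417, 22292 and 20059 in Tsc2 mut/mut and 34292, 31710, 31355 and 28934 in Tsc2 wt/wt cultures, where every Tsc2 mut/mut culture was lower. Hnrnpd fell by 0.54 (SE 0.15, adjusted p = 0.0308). Its total RNA was 23489, 34589, 21079 and 32466 in Tsc2 mut/mut and 41289, 29190, 29006 and 33830 in Tsc2 wt/wt cultures, so the separation seen in polyribosomal RNA was not present in total RNA. Neither call held without the block (Hnrnpul2 adjusted p = 0.174, Hnrnpd 0.285, and 0 members called), nor with limma's plain variance model (adjusted p of 0.0602 and 0.0997), under which no gene of the whole table was called, and 0 members were called with Y-linked RNA as a covariate. Leaving out Tsc2 wt/wt culture 2 or 3 also ended both calls (adjusted p of 0.0668 and 0.0659 for Hnrnpul2, 0.109 and 0.0987 for Hnrnpd), and leaving out Tsc2 mut/mut culture 4 ended that of Hnrnpd (0.0755). Over all genes, 514, 439 and 705 were called lower in these fits, in place of 1131.

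Another 4 members had an unadjusted p under 0.05 and no call: Hnrnpul1 (-0.46 ± 0.17, adjusted p = 0.0836), Hnrnpa0 (-0.39 ± 0.16, 0.114), Srsf5 (-0.30 ± 0.11, 0.0839) and Hnrnpu (-0.24 ± 0.11, 0.161). Srsf5 and Hnrnpa3, whose run of 8 or more C or T began within 5 bases of the annotated start, had log2 changes of -0.30 and -0.09, and Srsf7, whose run of 10 ended before it, had 0.17 ± 0.12. For Hnrnpf, Srsf2, Hnrnpa1, Hnrnpc, Srsf3 and Hnrnph1 the efficiency changes were -0.02 to 0.02, each with a standard error of 0.11 to 0.13, so changes of about that size could not be seen. Transcript length moved with the efficiency change. Across the 31 members the Spearman correlation of the log2 change with the length of the principal transcript was -0.44, and across 13543 genes it was -0.45, a description over genes that share libraries. For the change in total RNA the length correlation was 0.46 over members and 0.19 over genes. For polyribosomal RNA it was 0.13 and -0.14. The efficiency change correlated with the GC content of the principal transcript at -0.09 and -0.26. The principal transcripts of Hnrnpul2 and Hnrnpd are 5118 and 6811 bases long, against a median of 2618 over members. The part of length in these 2 results was not tested.

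Most members stood high in the polyribosomal fraction in both genotypes. The ratio level, the log2 of polyribosomal over total RNA in a culture with the median gene at 0, averaged above 0 for 27 of 31 members in Tsc2 mut/mut and 28 of 31 in Tsc2 wt/wt cultures. The median member stood at the 78.7th percentile of all genes in Tsc2 mut/mut and the 80.4th in Tsc2 wt/wt cultures. By culture the median member had a ratio level of 0.82, 0.79, 1.00 and 0.84 in Tsc2 mut/mut and 0.99, 1.02, 0.89 and 0.94 in Tsc2 wt/wt cultures, ranges that overlapped. Hnrnpa0, a member of the A/B group encoded without introns, was the highest, with 1.88, 1.61, 1.82 and 1.23 in Tsc2 mut/mut and 1.62, 2.17, 2.13 and 2.07 in Tsc2 wt/wt cultures. It stood at the 96.2th percentile in Tsc2 mut/mut and the 99.8th in Tsc2 wt/wt cultures. Srsf12 was the lowest, with -1.65, -1.18, -0.86 and -0.74 in Tsc2 mut/mut and -0.65, -1.19, -1.37 and -0.73 in Tsc2 wt/wt cultures. Srsf10 and Srsf11 were also below the median gene in both genotypes (38.6th to 43.4th percentile), and Hnrnpu lay near it (46.8th in Tsc2 mut/mut, 55.9th in Tsc2 wt/wt). The fractions were normalized separately, so these are ranks among genes and not tested.

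**Figure D3:**
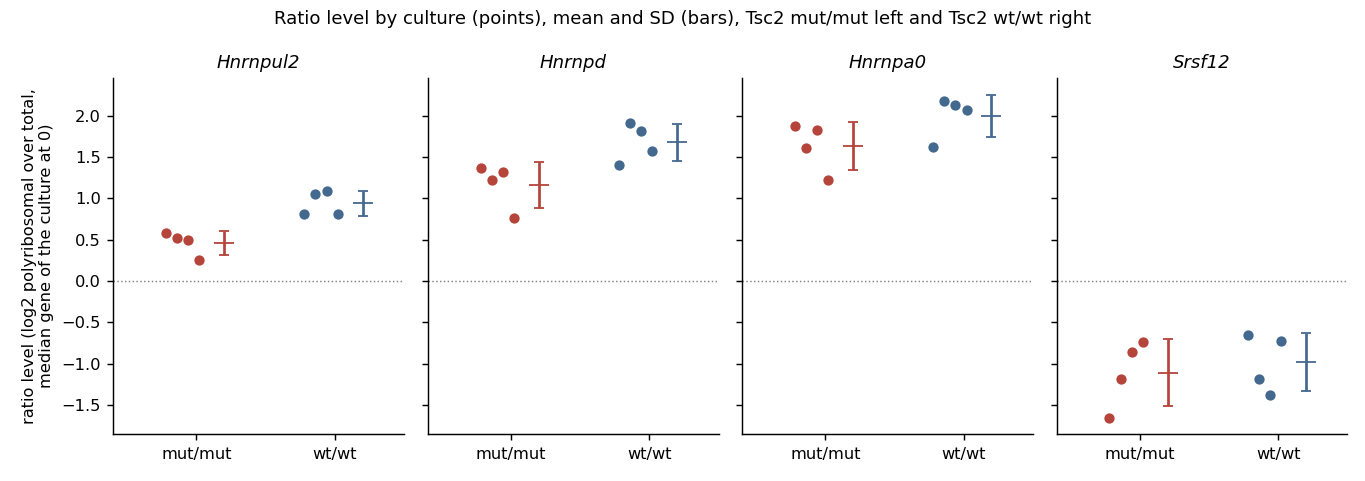
Ratio level (log2 of polyribosomal over total RNA, the median gene of a culture at 0, dotted) of the 2 members with a lower translational efficiency, Hnrnpul2 and Hnrnpd, and of the members with the highest and lowest level, Hnrnpa0 and Srsf12; points are cultures, bars the mean and SD of 4 Tsc2 mut/mut (left) and 4 Tsc2 wt/wt cultures (right). Hnrnpul2 lies at 0.25 to 0.58 in Tsc2 mut/mut and at 0.81 to 1.08 in Tsc2 wt/wt cultures.

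The members did not fall equally in the 4 Tsc2 mut/mut cultures. Relative to the Tsc2 wt/wt mean, the median member was at -0.45, -0.18, -0.64 and -0.25 (log2) in total RNA of Tsc2 mut/mut cultures 1 to 4, and at -0.06 to 0.06 in the Tsc2 wt/wt cultures. In polyribosomal RNA it was at -0.58, -0.36, -0.75 and -0.48 in Tsc2 mut/mut and at -0.12 to 0.13 in Tsc2 wt/wt cultures. Culture 3 was the lowest Tsc2 mut/mut culture for 29 of 31 members in total RNA and for 21 of 31 in polyribosomal RNA. How often it was the lowest over all genes was not counted. Genes of S phase, a list of 30 chosen with earlier results of these data known, took the same order. They were at -0.92, -0.30, -1.35 and -0.52 in total RNA of Tsc2 mut/mut cultures 1 to 4 and at -0.16 to 0.12 in Tsc2 wt/wt cultures. Core spliceosome genes took this order in total RNA too, at -0.41, -0.21, -0.58 and -0.33 in Tsc2 mut/mut cultures 1 to 4. So did the hnRNP-like genes (-0.30, -0.12, -0.41 and -0.26) and SR-related genes (-0.14, -0.003, -0.33 and -0.07) described below. All 30 S phase genes fell in total RNA (median -0.73) and 19 in polyribosomal RNA (median -0.59), among them Ung, Uhrf1 and Mcm2. Over all genes 20.7% and 11.9% were called lower. The part of S phase in the members' change was not tested. The nuclear RNAs Neat1, Malat1 and Miat rose in total RNA (log2 changes 2.31, 1.15 and 1.29).

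**Figure D4:**
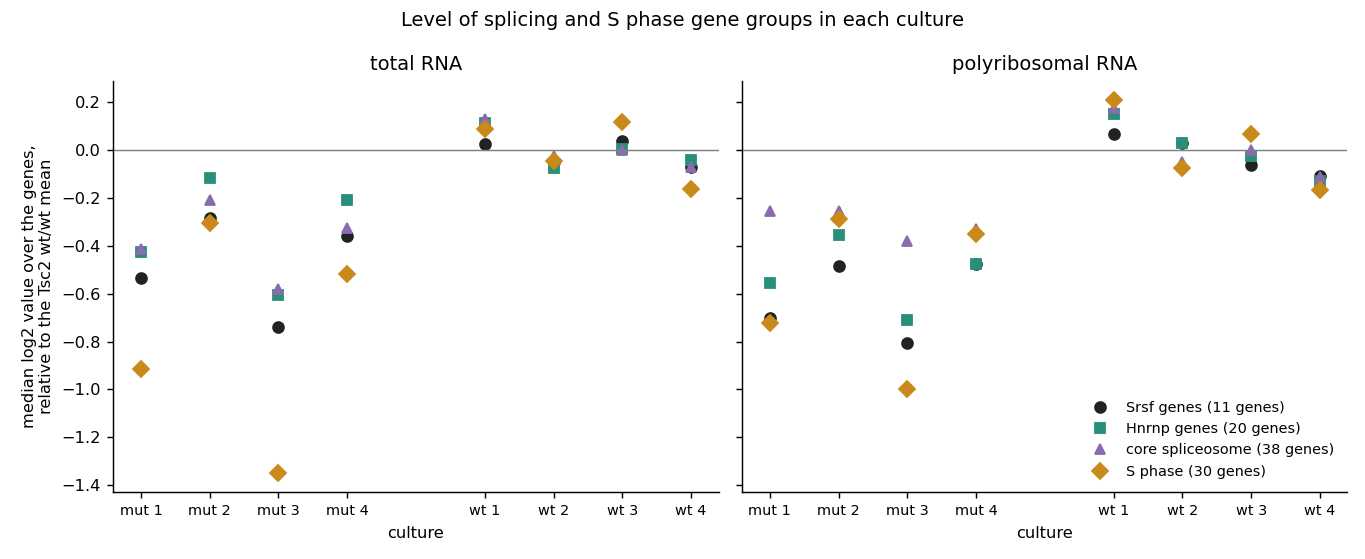
Median log2 value of 4 gene groups in each culture relative to the Tsc2 wt/wt mean, in total RNA (left panel) and polyribosomal RNA (right panel); the 4 Tsc2 mut/mut cultures are left of the 4 Tsc2 wt/wt cultures. Srsf and Hnrnp genes are lowest in Tsc2 mut/mut culture 3, as are the core spliceosome and S phase genes, and every Tsc2 mut/mut point lies below 0.

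Markers of other cell types also differed. Oligodendrocyte markers rose in total RNA for 8 of 8 genes, with summed values of 18725 to 25563 in Tsc2 mut/mut and 9058 to 10803 in Tsc2 wt/wt cultures. Astrocyte markers rose for 5 of 8, choroid plexus markers for 3 of 7, microglia markers for 4 of 14 and neuronal markers for 2 of 8. Over all genes 19.7% were called higher in total RNA. In polyribosomal RNA 8 of 8 oligodendrocyte, 4 of 8 astrocyte (1 fell) and 5 of 7 choroid plexus markers rose. So did 3 of 8 neuronal and 0 of 12 microglia markers, against 11.7% of all genes. The part of these cell types in the members' change was not tested. Without Tsc2 mut/mut cultures 2 and 4, where microglia markers were highest, 26 members were called lower in total and 28 in polyribosomal RNA, and without cultures 1 and 3, 10 and 15 were called. Over all genes, 3555 and 2815 were called lower without cultures 2 and 4, and 1151 and 633 without cultures 1 and 3. With all cultures these were 3091 and 1713. Without culture 3, whose total RNA stood apart, 15 members and 2359 of all genes were called lower in total RNA. The 5 members called in total RNA with Y-linked RNA as a covariate, where 535 of all genes were called lower, were Hnrnpa1, Hnrnpa3, Hnrnpc, Hnrnpf and Srsf5. In polyribosomal RNA that fit called 30 genes of the whole table, and the median log2 changes of the members were -0.39 in total and -0.48 in polyribosomal RNA. In total RNA of cultures rich in Y-linked RNA the median member was at -0.45 in Tsc2 mut/mut culture 1 and at 0.06, -0.06 and 0.00 in Tsc2 wt/wt cultures 1 to 3. Among those poor in it, Tsc2 mut/mut cultures 2, 3 and 4 were at -0.18, -0.64 and -0.25 and Tsc2 wt/wt culture 4 at -0.05. The Y-linked sums of these were 7 to 49 in Tsc2 mut/mut and 258 in Tsc2 wt/wt. Each set holds only 1 culture of a genotype, and the part of sex was not tested.

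Of 25 tested SR-related genes, such as coactivators and Tra2 proteins, 4 fell and 1 rose in total RNA (median -0.14) and 6 fell and 1 rose in polyribosomal RNA (median -0.33). Those lower were 16% and 24% of the list, against 20.7% and 11.9% of all genes. Rnps1, which joins the exon junction complex, fell in both (-0.93 ± 0.12 and -0.89 ± 0.11), as did the splicing activator Tra2a (-0.57 ± 0.09 and -0.46 ± 0.13), whereas Rsrp1 rose in total RNA (1.03 ± 0.17). Of the 25 SR-related genes, 5 (20%) had a lower translational efficiency, against 7.89% of all genes. Among them were Scaf4, Sfswap and Srrm1 (-0.54, -0.46 and -0.50). Of 28 other hnRNP-like proteins 11 (39.3%) fell and 1 rose in each fraction (medians -0.23 and -0.37). Ptbp1, which represses neuronal exons, fell in polyribosomal RNA (-0.71 ± 0.15), Elavl1, which stabilizes AU-rich mRNAs, fell in both (-0.58 ± 0.10 and -0.61 ± 0.13), and the cold-inducible Cirbp rose in both (0.60 ± 0.09 and 0.82 ± 0.13).

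Of 38 core spliceosome genes, 24 fell in total RNA (median -0.40) and 16 in polyribosomal RNA (median -0.35), and none rose in either. Those lower were 63.2% and 42.1% of the list, against 20.7% and 11.9% of all genes. Snrnp40, Sf3b5 and Sf3a3 fell by 0.72, 0.61 and 0.56 on the log2 scale in total RNA. Ddx23, Eftud2 and Snrnp70 fell by 0.61, 0.56 and 0.63 in polyribosomal RNA. The enzymes and importins that phosphorylate, dephosphorylate and carry SR proteins did not move as a group: of 15, 4 fell and 2 rose in total RNA (median 0.01), and 2 fell and 1 rose in polyribosomal RNA. Those lower were 26.7% and 13.3% of the 15. Srpk1, a main SR protein kinase, fell in both (-0.68 ± 0.12 and -0.76 ± 0.16), and Tnpo3, which imports phosphorylated SR proteins, fell in total RNA (-0.55 ± 0.11). Of 17 genes of NMD and the exon junction, 6 (35.3%) fell in total and 4 (23.5%) in polyribosomal RNA. They included Magoh (-0.65 ± 0.11 in total RNA) and Upf1 (-0.58 ± 0.16 in polyribosomal RNA). Of 22 splicing regulators that mark tissues, 4 (18.2%) fell and 6 rose in total RNA, Elavl3 by 0.67 ± 0.17. In polyribosomal RNA 2 (9.09%) fell and 2 rose. Over all genes 19.7% were called higher in total and 11.7% in polyribosomal RNA. Whether the members moved more than these groups was not tested.

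The library kit did not mark strand, so reads from overlapping genes cannot be told apart. Exons shared with another gene cover 43.0% of the exonic bases of Srsf4 (Gm12992), 29.1% of Hnrnpab (Phykpl), 26.45% of Hnrnpf (4933440N22Rik and Gm43863 together), 25.3% of Srsf2 (Mettl23 and Mfsd11 together), 14.7% of Hnrnpm (March2) and at most 6.93% of any other member. Members such as Hnrnpa1 have processed copies in the genome, such as Hnrnpa1l2-ps2, and the read counter is not given in the sources used here, so values of such members are uncertain to that extent.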

How the data were processed

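RNA of 8 V-SVZ NSC cultures was sequenced as 16 libraries, total and polyribosomal, after poly(A) selection with an unstranded paired-end kit. The authors trimmed reads, aligned them with STAR to mm10 and normalized them with DESeq2. Each deposited table, with 1 for each fraction and 8 libraries in it, holds a signal: read counts after division by normalization factors. Whole reads were not recovered: 65.9% to 92.5% of values under 8.5 reads lay within 0.1 read of a whole multiple of the estimated value of 1 read, so no count model was used. Of 24972 rows, 26 with names turned into dates were left out.

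The labels gave the group and culture number of each library. Genes with a mean of at least 10 were log-transformed, log2(value + 1), and tested in limma (3.58.1, R 4.3.3) with trended, robust moderation of the variance and Benjamini-Hochberg adjustment over all genes tested. Fold changes on this scale understate those of low genes; errors given with log2 changes are standard errors, and those given with mean values are SDs. The threshold was an adjusted p of 0.05. The code was tested on simulated data. Members and gene lists were chosen with earlier results of these data known. All members may be named. Values by culture are given for the 3 called members with the smallest p in each comparison and direction, the most abundant Srsf and Hnrnp gene, and those with the highest and lowest ratio level. Of other lists up to 3 genes by smallest p are named, and Sox2 was added outside this rule.

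Total and polyribosomal libraries of 1 culture carry the same number in the labels, and their deviations from the group means correlated at 0.233 to 0.731, so culture was a block in the test of translational efficiency. Same-numbered cultures of different genotype are different cultures (-0.127 to 0.127). Alternatives changed the pseudocount, the filter, the scaling, the variance model, the block, a Y-linked covariate and the cultures left out. Positions are GRCm38 (mm10), annotation GENCODE M21, promoters RefSeq; all 31 members matched GENCODE and 29 RefSeq promoters.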

Additional observations from a re-analysis of the deposited data

Results flagged for a closer look

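Within groups of 4 libraries, 5 of 124 sets of member values held a library whose gap to the next, as a part of the range of the group, was over Dixon's critical value for 4 samples, and chance gives about 1 in 20. In total RNA of Tsc2 wt/wt culture 1, Hnrnpl was 40744 (next 33703), Hnrnpul1 27119 (next 22275) and Srsf4 14056 (next 11447), each the highest of its group. Without that culture the total RNA calls of Hnrnpl (log2 change -0.26, limma adjusted p = 0.0849) and Srsf4 (-0.23, 0.0947) were lost, and Hnrnpul1 had no call with or without it. Hnrnph2 was lowest in total RNA of Tsc2 wt/wt culture 2, at 5901 (next 6481), and Srsf3 in polyribosomal RNA of Tsc2 wt/wt culture 3, at 37080 (next 44750). The genotype effect differed between fractions for Hnrnpd (-0.54 in polyribosomal minus total RNA) and Hnrnpul2 (-0.50), by the interaction test given above.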

How the results depend on the processing

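No member was called higher under any alternative, and no called member turned its direction. Members called lower in total RNA (23) numbered 15 with columns scaled to the same total, 14 with quantile normalization, 15 with limma's plain variance model, 10 without Tsc2 mut/mut cultures 1 and 3, 5 with the Y-linked covariate, and 13 to 24 with 1 culture left out: 13 without Tsc2 mut/mut culture 1, 15 without culture 3, and 14, 15 and 15 without Tsc2 wt/wt cultures 2, 3 and 4. In polyribosomal RNA (23) they numbered 15 without Tsc2 mut/mut cultures 1 and 3, 0 with the Y-linked covariate, and 19 to 26 with 1 culture left out. For translational efficiency (2) they numbered 1 with no filter, 0 with the plain variance model, 0 without Tsc2 mut/mut cultures 2 and 4 or 1 and 3, 0 with the Y-linked covariate, 0 without the replicate block, and 0 to 3 with 1 culture left out. The causes were not tested. All genes called lower in total RNA numbered 3206 with quantile normalization and 2785 with the plain variance model. Without Tsc2 mut/mut cultures 1 and 3 they numbered 1151 in total and 633 in polyribosomal RNA. With the Y-linked covariate they numbered 535 and 13, and with 1 culture left out 2114 to 3416 and 891 to 2106. All genes called for translational efficiency (1858) numbered 0 under the plain variance model, the Y-linked covariate, no block and without Tsc2 mut/mut cultures 1 and 3. Without Tsc2 mut/mut cultures 2 and 4, 755 genes were called lower and 997 higher in efficiency. With 1 culture left out 439 to 1786 genes were called lower in efficiency, and 842 with no filter. The median log2 change of members moved by less than the spread between Tsc2 mut/mut cultures in every alternative, and ranged from -0.53 to -0.23 in total RNA, -0.68 to -0.39 in polyribosomal RNA and -0.16 to -0.05 for efficiency. Scaling to the same total raised the median of all genes to 0.11 in total and 0.13 in polyribosomal RNA, and the split of calls over all genes to 2263 lower and 3833 higher (total) and 929 lower and 2583 higher (polyribosomal). Same-numbered cultures across genotypes share only a number. With that replicate block 16 members were lower in total and 22 in polyribosomal RNA. Over all genes, 2339 and 1185 were then called lower.

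Of the 23 members called in total RNA, 13 were called whichever culture was left out (5 under all 20 alternatives), and 18 of 23 in polyribosomal RNA.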
